A study of Rattus norvegicus with 9 samples.

Results

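A set of 5 genes of the endoplasmic reticulum (ER) and integrated stress responses was followed in rat cardiomyocytes after hypoxia and reoxygenation (H/R): Hspa5 (ENSRNOG00000018294), Atf4 (ENSRNOG00000017801), Ddit3 (ENSRNOG00000006789), Asns (ENSRNOG00000007546) and Trib3 (ENSRNOG00000007319). They were taken by Ensembl gene ID, and all 5 were found among the 30560 IDs of the count tables. The tables hold IDs and no symbols, so the symbols come from the list of IDs that defined the set. RNA was sequenced from cardiomyocytes of rat heart, labelled NRCM, in 3 groups of 3 libraries. Normoxia cells served as the unstressed group. H/R-DMSO cells spent 6 h at 0.1% oxygen in medium lacking glucose and pyruvate and were then returned to 21% oxygen and standard medium for 12 h with the solvent DMSO. H/R-AS8351 cells had the same course, with AS8351, described in the labels as a Kdm5b inhibitor, present at 0.5 µM during the 12 h of reoxygenation. Kdm5b is a histone lysine demethylase. Strain is not given in the labels used here, and age only through the abbreviation NRCM, which commonly stands for neonatal rat cardiomyocytes. The labels do not state whether normoxia cells received DMSO or the change of medium, so oxygen, nutrients, reoxygenation and solvent cannot be told apart in a comparison with normoxia. Separate cultures are not stated for the replicates either, and the p-values then cover only the spread among these libraries, which may be technical.

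When unfolded proteins build up in the ER, or amino acids, oxygen or glucose run short, cells slow general protein synthesis through phosphorylation of the translation factor eIF2α, while the transcription factor ATF4 is translated more. ATF4 then raises genes of amino acid supply and stress signalling, and this is called the integrated stress response. The unfolded protein response has further arms, run by the sensors ATF6 and IRE1, which raise ER chaperones. Hspa5 encodes BiP (GRP78), the main chaperone of the ER lumen, and stands here for the chaperone arm. Atf4 encodes the transcription factor itself. Among its known targets, Ddit3 encodes CHOP, a transcription factor tied to cell death under lasting ER stress, Asns encodes asparagine synthetase, and Trib3 encodes a pseudokinase that binds AKT and feeds back on ATF4. Much of ATF4 control is in translation and protein turnover, which RNA counts do not measure.

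RefSeq promoter windows (assembly GRCr8) were matched by symbol for 5 of 5 genes, and 2 of them are shown because they hold the textbook binding element of one arm each. The ER stress response element, written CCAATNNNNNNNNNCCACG with N for any base, is the element through which ATF6 acts on chaperone genes. The C/EBP-ATF element, written TGATGNAA, is the element through which ATF4 acts. Both strands were searched in windows of 300 bases that begin 250 bases before each annotated start. The 250 bases before the start are printed 5′ to 3′ on the strand of the gene, in lower case, with the match in capitals. The Hspa5 stretch is chr3:38452766-38453015 on the + strand and the Trib3 stretch chr3:161275534-161275783 on the - strand, both in GRCr8, while the counts were made on rn6 per the submitters' processing notes.
Hspa5: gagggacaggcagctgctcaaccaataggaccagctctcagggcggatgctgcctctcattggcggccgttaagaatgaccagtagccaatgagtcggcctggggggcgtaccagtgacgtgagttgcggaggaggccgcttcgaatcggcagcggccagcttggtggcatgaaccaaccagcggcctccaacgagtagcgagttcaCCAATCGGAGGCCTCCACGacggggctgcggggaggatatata
Trib3: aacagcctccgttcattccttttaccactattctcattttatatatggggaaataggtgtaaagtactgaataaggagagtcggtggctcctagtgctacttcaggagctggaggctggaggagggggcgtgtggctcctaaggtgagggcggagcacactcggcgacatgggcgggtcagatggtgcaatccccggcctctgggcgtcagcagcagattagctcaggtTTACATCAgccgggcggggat
The Hspa5 window holds the ER stress response element on its own strand, starting 43 bases before the annotated start. That element was found in 22 of the 33469 rat promoter windows (0.0657%). The Trib3 window holds the C/EBP-ATF element on the opposite strand, as TGATGTAA, with its leftmost base 21 bases before the start. This shorter element was found in 1332 windows (3.98%). The windows of Atf4, Ddit3 and Asns hold neither set of letters. A match of letters is not evidence of binding, and a missing match says nothing of elements elsewhere.

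The libraries held between 34442733 and 54888975 counts, and 15879 genes passed the filter on low counts, all 5 genes among them. Replicates differed by more than sampling noise: their counts gave a chi-square of 3.885 to 8.717 per degree of freedom, above the 1 of sampling noise. Separate preparations from one culture could also exceed 1, so these values do not show separate cultures. The highest values, 8.717 and 7.913, belonged to the pairs with replicate 1 of H/R-DMSO. Levels are given in CPM, counts scaled to a common library size and between libraries by TMM, a method that assumes most genes do not change. CPM is not corrected for transcript length, so levels are compared for 1 gene across libraries and not between genes. The lowest count of any of the 5 genes in a library was 1270, for Ddit3. The other genes of the pathway, 86 symbols in 6 lists, and markers of cardiomyocytes and other heart cells could not be placed on the IDs, since the rat gene table at hand pairs 0 IDs with a symbol. The share of cardiomyocytes in the cultures was therefore not checked, and in such bulk RNA fewer cells of a type cannot be told apart from less RNA per cell.

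After H/R, the chaperone gene and 3 of the 4 genes of the ATF4 arm were lower than in normoxia. Hspa5, Atf4 and Asns each fell by about the same proportion, Trib3 fell the most, and Ddit3 did not pass the test. A gene passed when its adjusted p (edgeR quasi-likelihood test, Benjamini-Hochberg over the 15879 genes) was below 0.05. By this test 25.2% of all genes tested were lower and 27.5% higher, so a lower level was common in this comparison. Together these are most of the genes tested, whereas TMM assumes that most genes do not change. The median log2 fold change of the 5 genes was -0.34, beside 0.028 over all genes tested.

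Hspa5 stood at 865, 846 and 882 CPM in the normoxia libraries, at 677, 691 and 661 CPM in H/R-DMSO and at 694, 688 and 710 CPM in H/R-AS8351. All normoxia libraries lay above all 6 H/R libraries, while the H/R groups overlapped. The mean went from 864 ± 18.1 CPM (SD, n = 3) to 676 ± 14.8 CPM after H/R, with log2 fold change -0.35 (SE 0.033) and adjusted p = 3.41e-12 by edgeR, or 21.8% lower with a 95% interval of the change from -25.3% to -18.0%.

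Atf4 stood at 312, 318 and 330 CPM in normoxia, at 247, 255 and 256 CPM in H/R-DMSO and at 254, 257 and 264 CPM in H/R-AS8351. The order of the groups was that of Hspa5, with both H/R groups overlapping below normoxia. The Atf4 mean fell from 320 ± 9.14 CPM to 253 ± 4.82 CPM (SD, n = 3), with log2 fold change -0.34 (SE 0.037) and adjusted p = 1.33e-10 by edgeR, or 21.0% lower with a 95% interval from -25.0% to -16.9%.

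Asns, the amino acid synthesis gene of the set, stood at 158, 156 and 172 CPM in normoxia, at 139, 126 and 126 CPM in H/R-DMSO and at 130, 129 and 123 CPM in H/R-AS8351. Replicate 1 of H/R-DMSO was the highest of the 6 H/R libraries and still below every normoxia library. The mean fell from 162 ± 8.63 CPM to 130 ± 7.34 CPM (SD, n = 3), with log2 fold change -0.32 (SE 0.044) and adjusted p = 8.1e-08 by edgeR, or 19.7% lower with a 95% interval from -24.5% to -14.5%.

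Trib3, the pseudokinase gene, stood at 92.2, 90.8 and 92.8 CPM in normoxia, at 54.1, 57.3 and 57.6 CPM in H/R-DMSO and at 64.9, 69.9 and 65.8 CPM in H/R-AS8351. Here none of the 3 groups overlapped another. After H/R the mean fell from 92.0 ± 1.02 CPM to 56.3 ± 1.94 CPM (SD, n = 3), with log2 fold change -0.71 (SE 0.048) and adjusted p = 1.45e-16 by edgeR, or 38.7% lower with a 95% interval from -42.7% to -34.5%.

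Ddit3, the CHOP gene, stood at 34.2, 36.2 and 35.9 CPM in normoxia, at 34.2, 36.6 and 36.2 CPM in H/R-DMSO and at 39.1, 40.7 and 35.3 CPM in H/R-AS8351. All 3 groups overlapped, and replicate 3 of H/R-AS8351 lay apart from the other two of its group, within the range of normoxia. The Ddit3 mean was 35.4 ± 1.07 CPM in normoxia and 35.7 ± 1.28 CPM in H/R-DMSO (SD, n = 3), a difference of 0.0097 in log2 (SE 0.061) with adjusted p = 0.91 by edgeR, with a 95% interval from -7.52% to 9.59%.

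**Figure D1:**
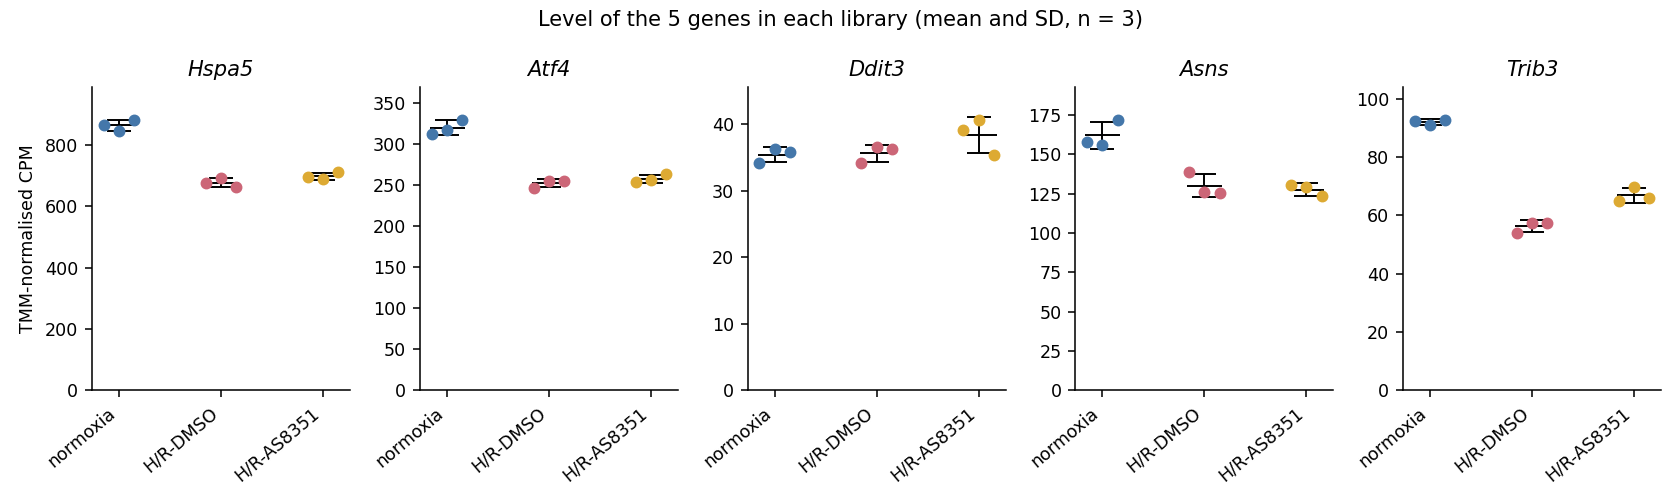
Level of Hspa5, Atf4, Ddit3, Asns and Trib3 in TMM-normalised CPM (vertical axes from 0, one scale per gene) in 3 libraries a group; points are libraries, and bars give the mean and SD. Both H/R groups lie below normoxia for Hspa5, Atf4, Asns and Trib3, the H/R groups separate for Trib3, and all groups overlap for Ddit3.

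The ranges of normoxia and H/R-DMSO did not overlap for 4 of the 5 genes, as for 57.5% of all genes tested. Ordered by log2 fold change, 8.36% of the genes tested stood below Trib3, 18.4% below Hspa5, 19.1% below Atf4, 20.4% below Asns and 47.6% below Ddit3. Trib3 was thus among the stronger decreases, Hspa5, Atf4 and Asns were moderate ones, and Ddit3 lay near the middle of all genes. The size of the decrease depended on how libraries were scaled. With scaling by total count, which raised the median gene by 0.16 in log2, the log2 fold changes were -0.19 for Hspa5, -0.18 for Atf4, -0.15 for Asns and -0.54 for Trib3, each still called (adjusted p between 3.37e-13 and 0.00274 by edgeR). Ddit3 then came to 0.17 (adjusted p = 0.0131 by edgeR) and was called higher, about the shift of the median gene.

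**Figure D2:**
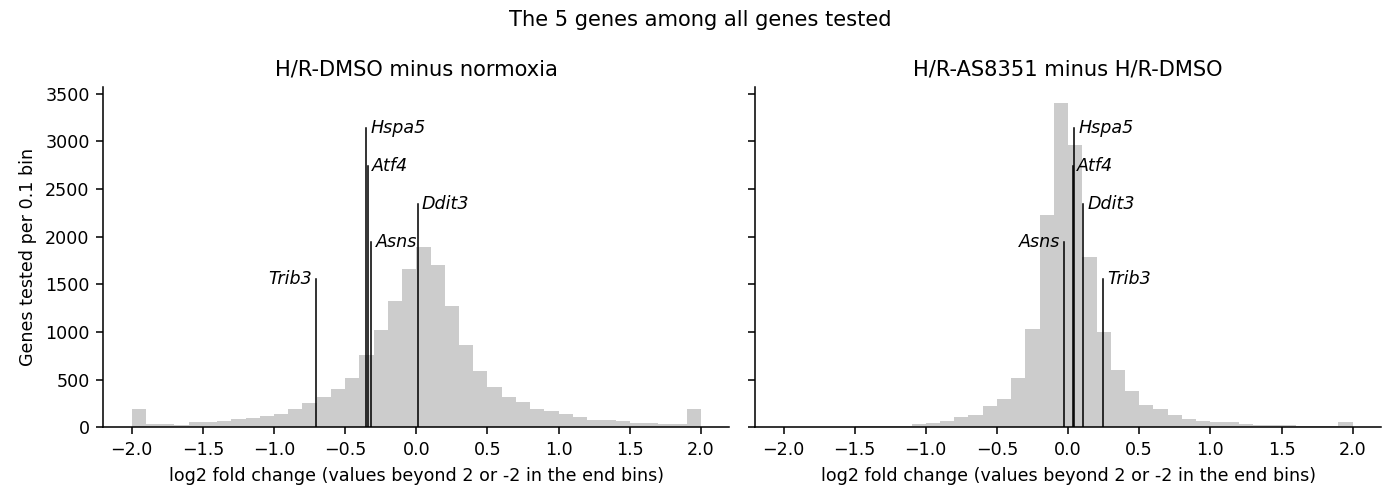
Number of genes tested per bin of 0.1 in log2 fold change (grey bars, 15879 genes) for H/R-DMSO minus normoxia and for H/R-AS8351 minus H/R-DMSO, with vertical lines at the 5 genes, whose heights only make room for the names. After H/R the lines of Hspa5, Atf4 and Asns stand together between -0.35 and -0.32 with Trib3 at -0.71, whereas in the second comparison Trib3, at 0.25, stands to the right of the other lines.

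Set against H/R-DMSO, the H/R-AS8351 libraries show what differed when the compound was present in the same course of H/R. Trib3 was higher with AS8351, and the other 4 genes did not pass the test. In this comparison, 84.5% of the genes tested had a lower log2 fold change than Trib3. Of all genes tested, 13.1% were higher and 9.97% lower, so 1 of 5 higher is near the share among all genes. The median log2 difference of the 5 genes was 0.045, beside -0.0058 over all genes tested. The ranges of the H/R groups did not overlap for 1 of the 5 genes, against 35% of all genes tested.

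Trib3 rose from 56.3 ± 1.94 CPM to 66.9 ± 2.66 CPM (SD, n = 3), with log2 fold change 0.25 (SE 0.048) and adjusted p = 0.000102 by edgeR, or 18.7% higher with a 95% interval from 11.0% to 27.0%. Every H/R-AS8351 library was above every H/R-DMSO library. Hspa5 came to 698 ± 11.4 CPM, a difference of 0.045 in log2 (SE 0.033) with adjusted p = 0.37 by edgeR, with a 95% interval from -1.52% to 8.08%. Atf4 came to 258 ± 4.98 CPM, a difference of 0.031 in log2 (SE 0.037) with adjusted p = 0.604 by edgeR, with a 95% interval from -2.91% to 7.59%. Increases of the size seen for Trib3 lie outside both intervals. With single libraries left out, the Hspa5 difference ranged from 0.029 (without replicate 3 of H/R-DMSO) to 0.060, and under total count scaling it was 0.0078 (adjusted p = 0.899 by edgeR). The Atf4 difference ranged from 0.016 (without replicate 1 of H/R-DMSO or replicate 3 of H/R-AS8351) to 0.044, and was -0.0058 under total count scaling (adjusted p = 0.933 by edgeR).

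Asns came to 128 ± 3.84 CPM (SD, n = 3), a difference of -0.028 in log2 (SE 0.045) with adjusted p = 0.723 by edgeR, with a 95% interval from -7.85% to 4.43%. Its sign depended on replicate 1 of H/R-DMSO, without which the difference was 0.020. Without replicate 3 of H/R-AS8351 it was -0.0029, and under total count scaling -0.065 (adjusted p = 0.312 by edgeR). Ddit3 came to 38.4 ± 2.75 CPM, a difference of 0.10 in log2 (SE 0.060) with adjusted p = 0.23 by edgeR, with a 95% interval from -1.19% to 17.0%. The Ddit3 difference was 0.061 without replicate 2 of H/R-AS8351 (adjusted p = 0.612 by edgeR), 0.16 without replicate 3 (adjusted p = 0.0866 by edgeR) and 0.067 under total count scaling (adjusted p = 0.462 by edgeR). The Ddit3 interval is the widest of the set.

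**Figure D3:**
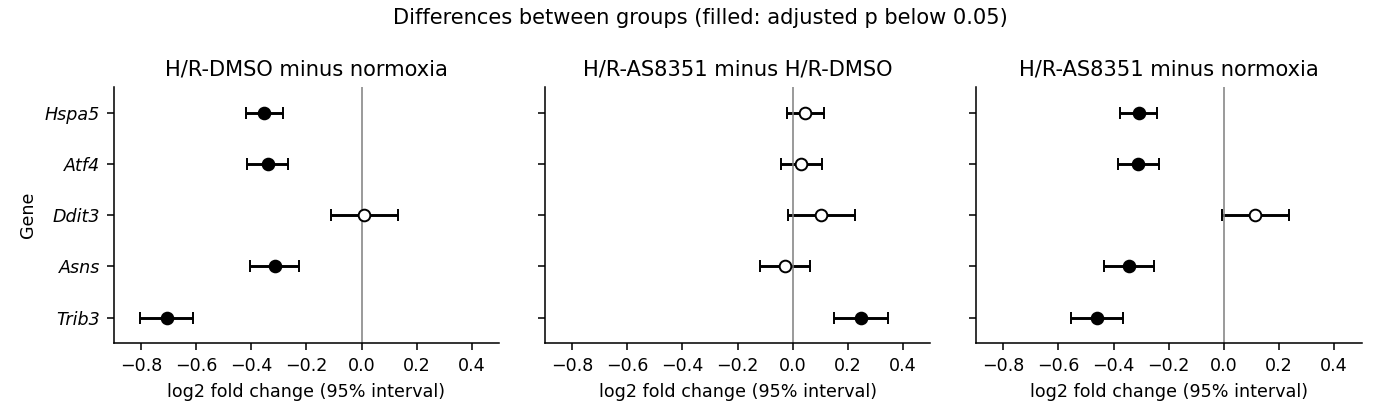
Log2 fold change (horizontal axis) with its 95% interval for the 5 genes in the 3 comparisons, from the edgeR quasi-likelihood fit to 9 libraries; filled points have an adjusted p below 0.05. Hspa5, Atf4, Asns and Trib3 lie left of 0 in both comparisons with normoxia, and Trib3, at 0.25, is the filled point for H/R-AS8351 minus H/R-DMSO.

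Set against normoxia, the H/R-AS8351 libraries show which of the genes remained away from the unstressed level. The same 4 genes, Hspa5, Atf4, Asns and Trib3, were called lower here as well, against 19.7% of all genes tested. The median log2 difference of the 5 genes was -0.31, beside 0.0095 over all genes tested. Hspa5 was lower by 19.3% (95% interval of the change from -22.9% to -15.4%), a difference of -0.31 in log2 (SE 0.033) with adjusted p = 2.44e-10 by edgeR. Atf4 was lower by 19.3% (from -23.3% to -15.1%), a difference of -0.31 in log2 (SE 0.036) with adjusted p = 2.63e-09 by edgeR. The chaperone gene and the transcription factor gene thus stood at the same distance from normoxia within their errors.

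Asns was lower than in normoxia by 21.2% (95% interval from -25.9% to -16.2%), a difference of -0.34 in log2 (SE 0.044) with adjusted p = 2.13e-08 by edgeR. Trib3 was lower by 27.2% (from -31.9% to -22.3%), a difference of -0.46 in log2 (SE 0.047) with adjusted p = 6.99e-11 by edgeR. For these 4 genes the ranges of the groups did not overlap, as for 48.9% of all genes tested. Ddit3 differed by 0.11 in log2 (SE 0.060) with adjusted p = 0.132 by edgeR, with a 95% interval from -0.498% to 17.7%. It was called higher without replicate 3 of H/R-AS8351, at 0.17 (adjusted p = 0.039 by edgeR), and under total count scaling, at 0.24 (adjusted p = 0.001 by edgeR). Under that scaling Hspa5 and Atf4 were at -0.18, Asns at -0.22 and Trib3 at -0.33, each still called lower.

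**Figure D4:**
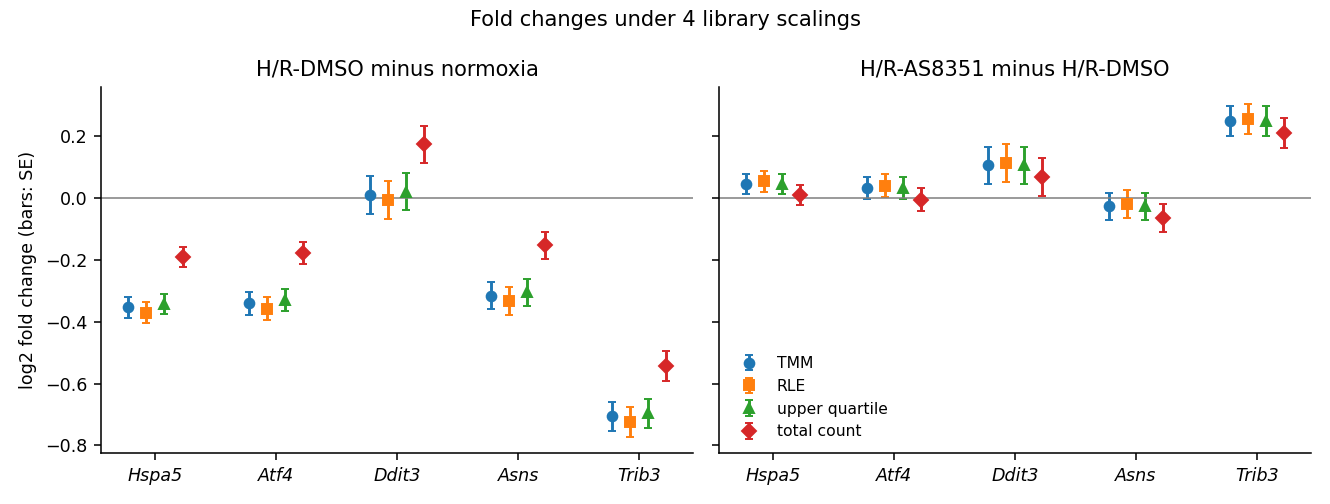
Log2 fold change with its SE (vertical axis) of the 5 genes under TMM, RLE, upper-quartile and total count scaling, for H/R-DMSO minus normoxia and H/R-AS8351 minus H/R-DMSO. Total count scaling lifts all 5 values after H/R, Hspa5 from -0.35 to -0.19 and Ddit3 from 0.0097 to 0.17, and moves Trib3 with AS8351 from 0.25 to 0.21.

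Both comparisons with H/R-DMSO share its 3 libraries, so how far each gene lay from H/R-DMSO towards normoxia is given as a description. With the H/R-DMSO mean CPM set at 0% and the normoxia mean at 100%, Trib3 stood at 29.6% ± 7.46 (SD, n = 3), and its libraries at 24.0%, 38.0% and 26.7%. Hspa5 stood at 11.4% ± 6.05, with libraries at 9.59%, 6.41% and 18.1%. Atf4 stood at 8.27% ± 7.39, with libraries at 1.82%, 6.66% and 16.3%. Asns stood at -7.83% ± 12.0, with libraries at 0.692%, -2.60% and -21.6%. With each library left out in turn, the position of Trib3 ranged from 25.2% to 32.4% and that of Hspa5 from 7.70% to 14.6%. That of Atf4 ranged from 4.28% (without replicate 3 of H/R-AS8351; 4.39% without replicate 1 of H/R-DMSO) to 11.5%, and that of Asns from -16.2% to 4.86%. Every library of Trib3 lay further towards normoxia than any library of the other 3 genes. Ddit3 has no position, as it was not called after H/R.

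For scale, 1338 genes averaging 5 CPM or more were called lower after H/R with log2 fold changes between those of Trib3 and Asns. Trib3, Hspa5, Atf4 and Asns are themselves among these genes. The median position of the 1338 genes was 33.9% (interquartile range from 17.9% to 51.2%). Trib3 lay close to that median, with 56.7% of these genes above it. Of the same genes, 17.0% lay below Hspa5, 14.5% below Atf4 and 5.08% below Asns. The group means of these 3 genes stood below the interquartile range, while replicate 3 of H/R-AS8351 was inside it for Hspa5, at 18.1%. The 1338 genes were called lower with the same H/R-DMSO libraries that set their 0%, which can shift their positions towards normoxia. The shares are therefore a description and cannot show that the 3 genes stood unusually low. Under total count scaling the positions were 34.1% for Trib3, 3.78% for Hspa5, -3.02% for Atf4 and -39.2% for Asns. The positions of the 1338 genes were not computed under that scaling. With TMM, Asns stood at 4.86% without replicate 1 of H/R-DMSO.

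The arms were set against each other through the ratio of each gene's counts to those of Atf4 in the same library, from which the library scaling cancels. The log2 ratios are given relative to the normoxia mean. Hspa5 over Atf4 was at 0.038, -0.022 and -0.016 in normoxia, at 0.020, 0.0030 and -0.062 in H/R-DMSO and at 0.018, -0.013 and -0.0037 in H/R-AS8351. The group means were 0 ± 0.033, -0.013 ± 0.043 and 0.00045 ± 0.016 (SD, n = 3), so that the proportion of the chaperone gene to Atf4 differed between groups by less than the SD of a group. Asns over Atf4 stood at 0.024 ± 0.11 in H/R-DMSO and at -0.034 ± 0.071 in H/R-AS8351 (SD, n = 3), both overlapping normoxia at 0 ± 0.043.

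Trib3 over Atf4 was at 0.040, -0.0085 and -0.032 in normoxia, at -0.39, -0.36 and -0.35 in H/R-DMSO and at -0.17, -0.081 and -0.20 in H/R-AS8351. No group overlapped another: relative to Atf4, Trib3 was lowest in every H/R-DMSO library and intermediate in every H/R-AS8351 library. Ddit3 over Atf4 was at -0.015, 0.041 and -0.027 in normoxia, at 0.32, 0.37 and 0.36 in H/R-DMSO and at 0.48, 0.51 and 0.28 in H/R-AS8351. Both H/R groups lay above normoxia and overlapped each other, and this order does not depend on the library scaling. With TMM scaling, Ddit3 differed by 0.0097 in log2 between H/R-DMSO and normoxia and Atf4 by -0.34. There the ratio mostly restates the lower Atf4 level. In these 12 comparisons of ratios, chosen after the values were seen, the 5 without overlap each had p = 0.1 in a two-sided exact permutation test. That is the smallest p that 3 against 3 libraries allow (adjusted p = 0.24 over the 12). The other 7 had exact p between 0.4 and 1. How many of all genes have ratios to Atf4 without overlap was not computed, so the 5 are not read as particular to this set. In CPM, the ranges did not overlap for 57.5% of all genes tested (H/R-DMSO and normoxia), 35% (the H/R groups) and 48.9% (H/R-AS8351 and normoxia).

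**Figure D5:**
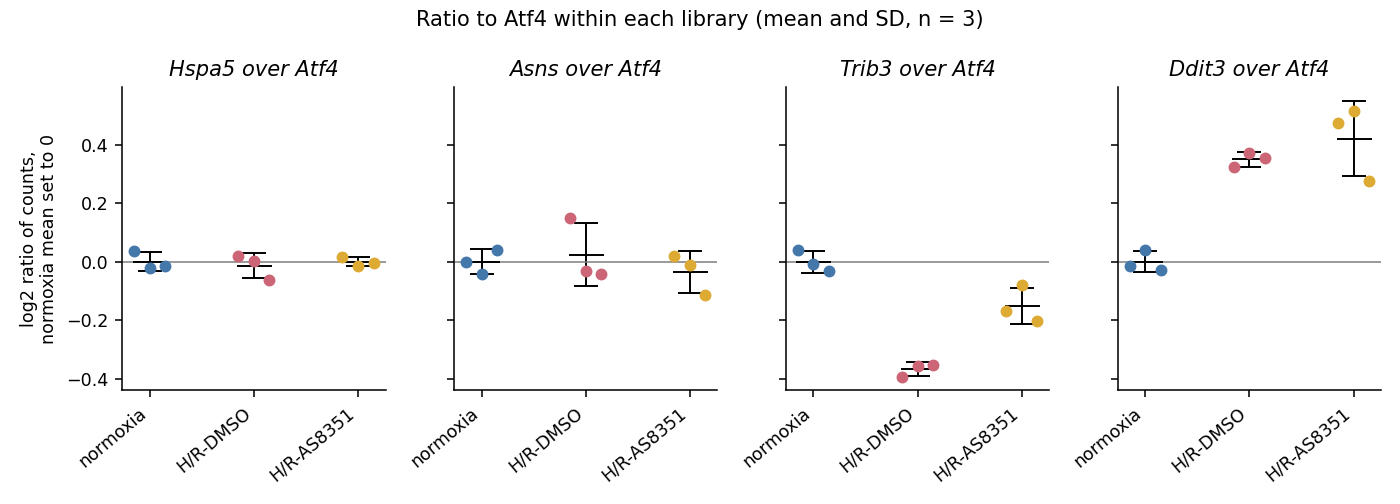
Log2 ratio of the counts of Hspa5, Asns, Trib3 and Ddit3 to those of Atf4 in the same library (vertical axis, normoxia mean set to 0), by group; points are libraries, and bars give the mean and SD. Hspa5 and Asns stay around 0 in all groups, Trib3 drops to -0.37 in H/R-DMSO and -0.15 in H/R-AS8351, and Ddit3 lies at 0.35 and 0.42.

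Across the 9 libraries, the likeness of the genes was measured as the root mean square difference of log2 CPM, each gene centred on its own mean. Hspa5 and Atf4 were the nearest pair of the set at 0.027, followed by Hspa5 and Asns at 0.063 and Atf4 and Asns at 0.068. Trib3 lay between 0.15 and 0.18 from these 3 genes, and Ddit3 and Trib3 were the farthest pair at 0.31. Among 11260 other genes that averaged 5 CPM or more, ENSRNOG00000011922 was nearest to Hspa5, at 0.022, with 157 ± 1.06 CPM in normoxia, 122 ± 2.43 CPM in H/R-DMSO and 126 ± 1.43 CPM in H/R-AS8351 (SD, n = 3). ENSRNOG00000036798 was nearest to Atf4, at 0.025, with 97.5 ± 3.20 CPM in normoxia, 76.7 ± 1.08 CPM in H/R-DMSO and 77.2 ± 2.15 CPM in H/R-AS8351.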

How the data were processed

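The authors deposited unnormalised read counts for each gene ID, in a separate table for every library. The submitters' processing notes name the build rn6 and the tools featureCounts 2.0.1, STAR 2.7.3a, Trimmomatic 0.39 and DESeq2 1.32.0. Annotation release, strand setting and the handling of multi-mapping reads: not given in the sources used here, so genes that overlap another or have a near copy could share counts. Groups and replicate numbers come from the sample titles. The tables of H/R-AS8351 carry another short code that the labels do not explain.

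Testing used edgeR 4.0.16 (R 4.3.3): filterByExpr (minimum count 10, minimum total 15; 14681 IDs removed, 99.97% of counts kept), TMM scaling (factors 0.9339 to 1.049) and 1 quasi-likelihood model of 3 groups over 9 libraries, with p-values adjusted over all 15879 genes tested. A standard error is the log2 fold change divided by the square root of its F value, and 95% intervals use the model's degrees of freedom. Code was tested on simulated data. Alternatives were other scalings (RLE, upper quartile, total count), other filters (a mean of at least 1 CPM, none), limma-voom (limma 3.58.1), DESeq2 1.42.0, the compared groups alone, a replicate block and each library left out. The named genes are the 5 set members and, for Hspa5 and Atf4, the 1 ID nearest in pattern. The members, lists and tests were chosen with earlier results of these data known. The ratios to Atf4, the distances among the 5 genes and the 1338 genes of like decrease were chosen after the values were seen.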

Additional observations from a re-analysis of the deposited data

How the results depend on the processing

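The 4 genes called lower in both comparisons with normoxia and the rise of Trib3 with AS8351 kept direction and call under every alternative run. Ddit3 after H/R changed sign, uncalled, with RLE scaling (-0.00783), with DESeq2 (-0.00783) and in a fit of the 2 groups alone (-0.0152), and was called under total count scaling (0.17); with each library left out it ranged from -0.0155 to 0.0381. Against normoxia, Ddit3 in H/R-AS8351 was called at 0.24 under total count scaling and ranged from 0.062 to 0.17 over left-out libraries. With AS8351, total count scaling gave -0.0058 for Atf4, 0.0078 for Hspa5 and -0.065 for Asns, all uncalled. Over left-out libraries Atf4 ranged from 0.016 to 0.044, Hspa5 from 0.029 to 0.060, Ddit3 from 0.061 to 0.16 (all uncalled), and Asns from -0.0535 to 0.0199. Total count scaling gave positions of -3.02% for Atf4, 3.78% for Hspa5 and -39.2% for Asns; Asns ranged from -16.2% to 4.86% over left-out libraries. Over all genes, the same scaling called 7282 higher and 2515 lower after H/R (4361 and 4003 in the main result), 5875 higher and 1786 lower for H/R-AS8351 against normoxia (3127 and 3130), and 2383 lower with AS8351 (1583). Over left-out libraries the last count ranged from 1042, without replicate 2 of H/R-AS8351, to 1540. Of 270 member fold changes under alternatives, 259 kept direction and side of the threshold.

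No pairing by replicate number was seen in deviations from group means. These correlated between -0.0187 and 0.0391 for equal numbers and between -0.0378 and 0.0294 for others. All genes tested entered with equal weight, those with low counts included, so a weak pairing could be missed. The replicate block changed no call of the 5 genes: Trib3 with AS8351 was at 0.25 (adjusted p = 2.45e-05 by edgeR) and Ddit3 after H/R at 0.012 (adjusted p = 0.89 by edgeR). The lowest count behind a value was 1270, for Ddit3. With AS8351, the 95% intervals of the 4 genes other than Trib3 include 0.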
